A study of Bos taurus with 11 samples.

Results

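The miR-99/100 and miR-125 families were followed in the lactating bovine mammary gland through 5 mature miRNAs. They were taken by name from the 796 miRNAs of the count table: bta-miR-99a-5p, bta-miR-99b and bta-miR-100 make up the miR-99/100 family, and bta-miR-125a and bta-miR-125b make up the miR-125 family. The rule uses family names and no measured value, though the families were picked with earlier results of these data known. The libraries came from biopsies of the mammary gland, 1 for each of 5 Holstein and 6 Montbéliarde cows, and small RNA was sequenced. All animals were in mid-lactation and received the same diet, a Holstein cow with mastitis had been left out by the authors, and breed was the factor compared. A biopsy holds secretory epithelium, stroma, vessels and blood cells together, so fewer cells of a type and less RNA per cell cannot be told apart in these values.

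A miRNA is a short RNA that guides an Argonaute protein to messenger RNAs that pair with its seed, the short stretch near its 5′ end, and these messengers are then translated less or degraded. Members of the miR-99/100 family share a seed and are known for acting on components of the mTOR and insulin-like growth factor pathways, which control growth and protein synthesis. The miR-125 miRNAs are the vertebrate relatives of lin-4, the first miRNA described in the nematode, and both families sit in ancient gene clusters together with let-7, a miRNA that accompanies cell differentiation. In the RefSeq gene table of assembly ARS-UCD2.0, which is later than the assembly used by the authors and served here for names and neighbours only, all 9 miRNA genes looked up were present. MIR125B-2, MIRLET7C and MIR99A followed each other and overlapped the lncRNA LOC132345457. MIR125B-1, MIRLET7A-2 and MIR100 followed each other in another cluster. MIR99B, MIRLET7E and MIR125A formed the remaining cluster, where MIR125A overlapped the protein-coding gene SPACA6. Mature miR-125b can thus come from MIR125B-1 or MIR125B-2, and its counts cannot be assigned to either locus. The mature sequences of miR-99a and miR-100 are near-identical, and how the authors assigned reads that match several miRNAs was not stated.

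The libraries held between 6087865 and 16808976 reads counted on miRNAs, with 7431936 to 16808976 in Holstein and 6087865 to 11395785 in Montbéliarde cows. Each member was covered by at least 3358 reads in every library. Libraries are named here by their tags: CNLX1 to CNLX9 (odd numbers) were Holstein and CNLX13 to CNLX23 (odd numbers) Montbéliarde. The tag numbers of the breeds do not interleave, and what they record was not stated, so an effect of their order cannot be told apart from breed. CNLX15 and CNLX21 stood apart from the other libraries: they had the lowest summed level of the epithelial marker miRNAs and the highest of the stromal ones. The breed comparisons of the members, their ratios, shares and correlations are therefore given with and without them. In normalized counts both were also above every other library for each member. Leaving them out was thus bound to lower the Montbéliarde mean of each member, and it leaves only 4 Montbéliarde libraries.

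All 5 members were abundant. By mean normalized count over the 11 libraries, bta-miR-125a ranked 36 among all miRNAs with 26248, bta-miR-99b ranked 46 with 14757, bta-miR-99a-5p ranked 47 with 14637, bta-miR-125b ranked 50 with 13740 and bta-miR-100 ranked 57 with 8669. Mature miRNAs have nearly the same length, so these counts were compared without a length correction. The order is one of read counts, and whether different miRNAs enter the libraries equally well was not tested. The top and bottom of this order held in every library: bta-miR-125a was above each other member, and bta-miR-100 below each other member, in 11 of 11 libraries. The 3 members between them did not keep an order. bta-miR-99b was above bta-miR-99a-5p in 4 of 11 libraries, all of them Montbéliarde, and above bta-miR-125b in 6 of 11, while bta-miR-99a-5p was above bta-miR-125b in 8 of 11.

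bta-miR-100 had the largest fold change between the breeds of the 5 members. The authors also measured it by RT-qPCR and did not name it among the miRNAs that showed the sequencing pattern there. Its normalized counts in Holstein cows were 4699 (CNLX1), 7771 (CNLX3), 6436 (CNLX5), 4751 (CNLX7) and 4376 (CNLX9). In Montbéliarde cows they were 7350 (CNLX13), 20779 (CNLX15), 9977 (CNLX17), 7175 (CNLX19), 14665 (CNLX21) and 7383 (CNLX23). Thus 3 of the 6 Montbéliarde libraries lay above the highest Holstein library and 4 of the 5 Holstein libraries lay below the lowest Montbéliarde library, but the breeds overlapped through CNLX3. The means were 5607 ± 1453 (SD, n = 5) for Holstein against 11222 ± 5493 (SD, n = 6) for Montbéliarde cows. The log2 fold change of Montbéliarde over Holstein was 0.99 (SE 0.28), a 1.99-fold higher level, with an adjusted p of 0.171 in edgeR's quasi-likelihood test and of 0.0363 in DESeq2's Wald test, where the log2 fold change was 1.001 (SE 0.31). Without CNLX15 and CNLX21, a comparison added after the data were seen, the log2 fold change was 0.57 (SE 0.17, adjusted p = 0.193 in edgeR). In DESeq2 it was then 0.51 (SE 0.21) and no longer passed (adjusted p = 0.140). The libraries left out had the highest counts of bta-miR-100. A smaller value without them was therefore fixed in advance, and the lost call does not show that the breeds are alike.

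bta-miR-99b shares the seed of bta-miR-100 but lies in another cluster. Its normalized counts in Holstein cows were 10435 (CNLX1), 13329 (CNLX3), 11561 (CNLX5), 8015 (CNLX7) and 8715 (CNLX9). In Montbéliarde cows the lowest was 11431, the median 14733 and the highest 32118. The breeds overlapped, with 4 of 6 Montbéliarde libraries above the highest Holstein library. The means were 10411 ± 2148 (SD, n = 5) and 18379 ± 8534 (SD, n = 6), the log2 fold change was 0.82 (SE 0.26), and it did not pass (adjusted p = 0.182 in edgeR and 0.0850 in DESeq2). Without CNLX15 and CNLX21 it was 0.40 (SE 0.16, adjusted p = 0.292 in edgeR).

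bta-miR-99a-5p, the member of the family encoded beside let-7c, separated the breeds least within the family. Its normalized counts in Holstein cows were 10998 (CNLX1), 14610 (CNLX3), 13994 (CNLX5), 10788 (CNLX7) and 9491 (CNLX9). In Montbéliarde cows they reached from 10041 to 32950, with a median of 13669. Only 2 of 6 Montbéliarde libraries, CNLX15 and CNLX21, were above the highest Holstein library. The means were 11976 ± 2211 (SD, n = 5) and 16854 ± 8522 (SD, n = 6), and the log2 fold change of 0.48 (SE 0.27) did not pass (adjusted p = 0.405 in edgeR and 0.358 in DESeq2). It fell to 0.27 without CNLX15 alone and to 0.10 (SE 0.16) without CNLX15 and CNLX21.

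In the miR-125 family, bta-miR-125a had the highest counts and the smallest fold change of the 5 members. Its normalized counts in Holstein cows were 25962 (CNLX1), 19934 (CNLX3), 24695 (CNLX5), 23706 (CNLX7) and 17919 (CNLX9), and in Montbéliarde cows they ranged from 21038 to 37064 with a median of 28902. CNLX23 was the exception among the Montbéliarde libraries, as the other 5 were all above the highest Holstein library. The means were 22444 ± 3384 (SD, n = 5) and 29418 ± 5795 (SD, n = 6), and the log2 fold change of 0.38 (SE 0.17) did not pass (adjusted p = 0.335 in edgeR and 0.182 in DESeq2). It was 0.29 (SE 0.15) without CNLX15 and CNLX21.

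bta-miR-125b is the other vertebrate relative of lin-4 measured here. Its normalized counts in Holstein cows were 10678 (CNLX1), 11902 (CNLX3), 13828 (CNLX5), 11945 (CNLX7) and 8707 (CNLX9), and in Montbéliarde cows they ranged from 9370 to 25410 with a median of 14301. The breeds overlapped over most of the Holstein range, and 3 of 6 Montbéliarde libraries were above the highest Holstein library. The means were 11412 ± 1885 (SD, n = 5) and 15680 ± 5497 (SD, n = 6), and the log2 fold change of 0.45 (SE 0.22) did not pass (adjusted p = 0.358 in edgeR and 0.263 in DESeq2). It was 0.23 (SE 0.17) without CNLX15 and CNLX21.

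**Figure D1:**
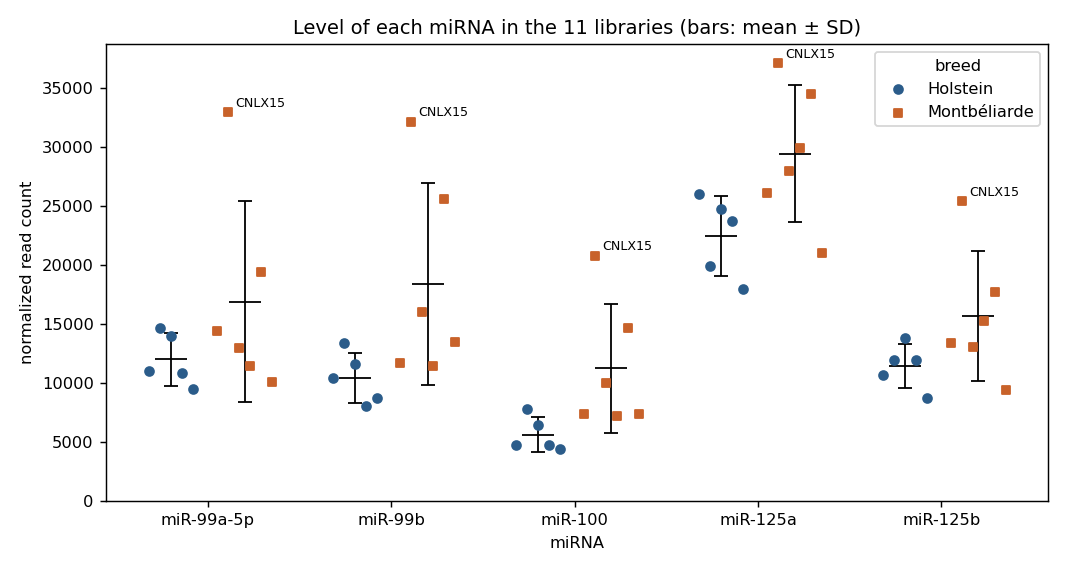
Normalized read count (vertical axis) of the 5 miRNAs in each of the 11 libraries, with circles for Holstein (n = 5), squares for Montbéliarde (n = 6) and black bars for the breed mean ± SD. CNLX15 is the highest library for all 5 miRNAs, and no miRNA separates the breeds without overlap.

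Counted over the 5 members, all of which passed the filter of 10 summed counts, 0 passed the adjusted threshold of 0.05 in edgeR, where 2 of the 550 miRNAs tested passed (0.364%). At an unadjusted p of at most 0.05, 3 of 5 members (bta-miR-100, bta-miR-99b and bta-miR-125a) were higher in Montbéliarde cows, compared with 42 of 550 miRNAs (7.64%). DESeq2 called 1 of 5, bta-miR-100, compared with 21 of the 432 miRNAs to which it gave an adjusted p (4.86%), and limma-voom called 0 of 5, compared with 2 of 550 (0.364%). In limma-voom 2 of 5 members were higher in Montbéliarde at an unadjusted p of at most 0.05, compared with 30 of 550 miRNAs (5.45%). No member had breeds that did not overlap with Montbéliarde on top, compared with 2 of 550 miRNAs (0.364%). The median log2 fold change was 0.48 over the members and 0.03 over all miRNAs tested, and 5 of 5 members had a positive value, as did 288 of the 550 (52.4%). With CNLX15 and CNLX21 left out, edgeR called 0 of 5 members, compared with 3 of the 531 miRNAs then tested (0.565%), and 2 of 5 were higher in Montbéliarde at an unadjusted p of at most 0.05, compared with 44 of 531 (8.29%). These counts are a description only. The members varied together over the libraries, so they are not 5 separate observations, and the miRNAs tested include many with far fewer reads than the members.

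The spread between cows was wider in Montbéliarde. The highest Montbéliarde library was 3.28-fold above the lowest for bta-miR-99a-5p, 2.81-fold for bta-miR-99b, 2.90-fold for bta-miR-100, 1.76-fold for bta-miR-125a and 2.71-fold for bta-miR-125b, whereas the corresponding Holstein values lay between 1.45-fold and 1.78-fold. On the log2 scale the SD was larger in Montbéliarde for 5 of 5 members, and for 80.0% of the 414 miRNAs with counts in every library, so the wider spread was not particular to the members. CNLX15 was the highest library for 5 of 5 members, and CNLX9 was the lowest for 4 of them, the exception being bta-miR-99b with its lowest value in CNLX7.

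Both families together held 0.508% to 0.695% of the counted reads in Holstein libraries (0.632% ± 0.0736, SD, n = 5) and 0.718% to 1.30% in Montbéliarde libraries (0.918% ± 0.251, SD, n = 6). In CNLX15 the share was 1.30%, with a 95% Wilson interval of 1.29% to 1.31% that covers counting error only. The ranges of the breeds did not touch, but the gap between 0.695% and 0.718% was small against the spread within either breed. These shares are of raw library totals. In the authors' normalized counts the members together were lower in CNLX23 than in CNLX1, CNLX3 and CNLX5, so the breeds overlapped on that scale. No test was made on a sum over chosen miRNAs, and how often other sums separate the breeds was not computed. The miR-99/100 family took 0.284% ± 0.0394 (SD, n = 5) for Holstein against 0.462% ± 0.179 (SD, n = 6) for Montbéliarde cows. The miR-125 family took 0.348% ± 0.0583 (SD, n = 5) and 0.456% ± 0.0868 (SD, n = 6). Without CNLX15 and CNLX21 the difference between the breeds for both families together was 0.129 percentage points instead of 0.285, for the miR-99/100 family 0.0659 instead of 0.178 and for the miR-125 family 0.0634 instead of 0.108. When the reads of bta-miR-143, the main stromal marker described below, were taken out of the total, a comparison added after the data were seen, the differences were larger, at 0.514 for both families, 0.303 for the miR-99/100 family and 0.210 for the miR-125 family. bta-miR-143 had more reads in Montbéliarde (mean normalized count 2.76e+06 against 1.84e+06 in Holstein). Taking it out raises every other share, on average more in Montbéliarde, so the increase is not particular to the families.

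Within the miR-99/100 family bta-miR-100 supplied 17.98% to 21.8% of the family's reads in Holstein (19.9% ± 1.37, SD, n = 5) and 22.01% to 25.6% in Montbéliarde libraries (24.04% ± 1.2, SD, n = 6). These ranges did not touch, but the gap between 21.8% and 22.01% was small against the spread within either breed. No test was made on these shares, and those of the other members overlapped between the breeds. bta-miR-99a-5p supplied 42.9% ± 1.90 and 36.3% ± 4.26, and bta-miR-99b supplied 37.2% ± 2.27 and 39.7% ± 3.40. In the miR-125 family bta-miR-125a supplied 66.3% ± 3.17 of its reads in Holstein and 65.9% ± 3.45 in Montbéliarde libraries. Over the 4 Montbéliarde libraries left without CNLX15 and CNLX21, bta-miR-100 supplied 23.9% ± 1.47, bta-miR-99a-5p 36.7% ± 4.88, bta-miR-99b 39.4% ± 3.75 and bta-miR-125a 67.4% ± 1.51 of its family.

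The ratio of 2 members within a library needs no normalization, and 7 such ratios were compared between breeds by an exact two-sided permutation test over the libraries, with p-values adjusted over the 7. The count ratio of bta-miR-100 to bta-miR-99a-5p was 0.427 (CNLX1), 0.532 (CNLX3), 0.460 (CNLX5), 0.440 (CNLX7) and 0.461 (CNLX9) in Holstein cows. In Montbéliarde cows it was 0.511 (CNLX13), 0.631 (CNLX15), 0.770 (CNLX17), 0.630 (CNLX19), 0.756 (CNLX21) and 0.735 (CNLX23). Here CNLX15 and CNLX21 lay among the other Montbéliarde libraries, and only CNLX13 was within the Holstein range. The log2 ratio was 0.52 higher in Montbéliarde cows (exact permutation p = 0.00649, adjusted p = 0.0455), where 0.00216 is the smallest p this design allows. This call was narrow, with an adjusted p close to the threshold of 0.05. With each of the 11 libraries left out in turn the difference stayed between 0.48 and 0.60 with an unadjusted exact p of at most 0.0190. The adjusted exact permutation p passed in only 2 of the 11 cases, without CNLX3 (0.050, at the threshold) and without CNLX13 (0.0278). Without CNLX15 and CNLX21 together the difference was 0.50 (exact permutation p = 0.0159, adjusted p = 0.111). Leaving libraries out allows fewer splits and raises the smallest p possible. With a Montbéliarde library left out, or with CNLX15 and CNLX21 left out, that p is 0.00794. A single ratio of the 7 could not pass at it after the adjustment. Without CNLX13 the ratio of bta-miR-99a-5p to bta-miR-99b reached the same p, which let both pass. An adjusted p that no longer passed therefore does not show that the difference was lost.

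No other ratio passed over the 11 libraries. The log2 ratio of bta-miR-100 to bta-miR-125b, which are encoded in the same cluster, was 0.51 higher in Montbéliarde cows (exact permutation p = 0.0325, adjusted p = 0.0909). Without CNLX3 it was 0.61 higher and passed at the threshold (exact permutation adjusted p = 0.050). That of bta-miR-100 to bta-miR-99b was 0.18 higher (exact p = 0.0433, adjusted p = 0.0909), and that of bta-miR-99a-5p to bta-miR-99b differed by -0.34 (exact p = 0.0519, adjusted p = 0.0909). The latter became -0.43 without CNLX13 and then passed (exact permutation adjusted p = 0.0278). The 3 ratios that involve no bta-miR-100 and no pair of bta-miR-99a-5p with bta-miR-99b had larger p-values. They were bta-miR-99b to bta-miR-125a with a difference of 0.35 (exact p = 0.197, adjusted p = 0.276), bta-miR-125b to bta-miR-125a with 0.03 (exact p = 0.846, adjusted p = 0.926) and bta-miR-99a-5p to bta-miR-125b with -0.02 (exact p = 0.926, adjusted p = 0.926). None of these 6 passed without CNLX15 and CNLX21, with an exact permutation adjusted p of at least 0.236. There a single ratio could not have passed even at the smallest p possible. The differences were then 0.38 for bta-miR-100 to bta-miR-125b, 0.18 for bta-miR-100 to bta-miR-99b, -0.31 for bta-miR-99a-5p to bta-miR-99b, 0.12 for bta-miR-99b to bta-miR-125a, -0.0725 for bta-miR-125b to bta-miR-125a and -0.12 for bta-miR-99a-5p to bta-miR-125b.

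**Figure D2:**
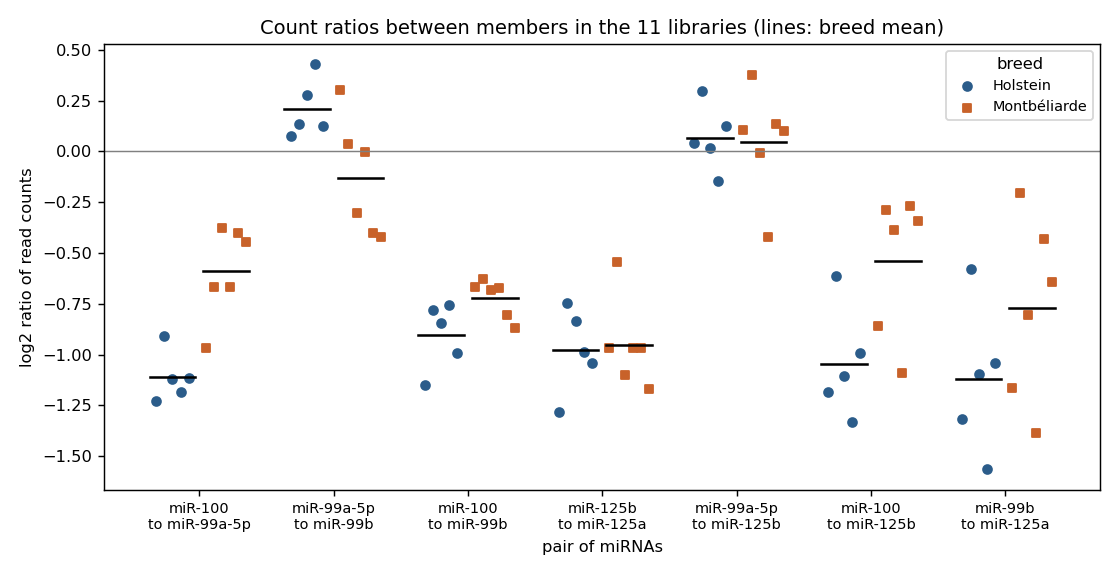
Log2 ratio of read counts (vertical axis) for 7 pairs of miRNAs, with 1 point for each library, circles for Holstein (n = 5), squares for Montbéliarde (n = 6) and black lines for the breed means. In the ratio of miR-100 to miR-99a-5p, 5 of the 6 Montbéliarde libraries lie above all Holstein libraries.

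The members varied together over the libraries, to differing degrees. bta-miR-100 and bta-miR-99b, encoded in different clusters, were the closest pair (Pearson's r = 0.978, permutation adjusted p = 7e-05, Spearman's rho = 0.891, permutation adjusted p = 0.00234, n = 11). Their r was 0.919 without CNLX15 and CNLX21, the libraries farthest from the median of bta-miR-100 (permutation adjusted p = 0.00532, rho = 0.80, permutation adjusted p = 0.0594), and 0.989 in the 6 Montbéliarde libraries alone (exact permutation adjusted p = 0.0194). bta-miR-125b and bta-miR-125a had an r of 0.896 (permutation adjusted p = 0.000607, rho = 0.827, permutation adjusted p = 0.00630), which was 0.827 without the same libraries (permutation adjusted p = 0.0230, rho = 0.70, permutation adjusted p = 0.102) and 0.950 within Montbéliarde (exact permutation adjusted p = 0.0194). These points share the scaling of each library, and the breeds are pooled in the 11.

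The other 5 of the 7 pairs no longer passed on r without CNLX15 and CNLX21, to differing degrees, and on rho no pair of the 7 passed without them. bta-miR-99a-5p and bta-miR-125b, both present in the cluster with let-7c, had an r of 0.908 (permutation adjusted p = 0.000455, rho = 0.882, permutation adjusted p = 0.00234) and 0.715 without those libraries (permutation adjusted p = 0.0707, rho = 0.783, permutation adjusted p = 0.0594), so it was weakened least. bta-miR-100 and bta-miR-99a-5p had an r of 0.890 (permutation adjusted p = 0.00136, rho = 0.745, permutation adjusted p = 0.0199) and 0.524 without them. bta-miR-99a-5p and bta-miR-99b had 0.878 (permutation adjusted p = 0.00224, rho = 0.564, permutation adjusted p = 0.0755) and 0.389. bta-miR-100 and bta-miR-125b had 0.831 (permutation adjusted p = 0.00248, rho = 0.718, permutation adjusted p = 0.0228) and 0.454, and bta-miR-99b and bta-miR-125a had 0.710 (permutation adjusted p = 0.0145, rho = 0.591, permutation adjusted p = 0.0716) and 0.213. Within Montbéliarde 4 of these 5 passed, with r between 0.831 and 0.933, and bta-miR-99b with bta-miR-125a did not (r = 0.719, exact permutation adjusted p = 0.124). On rho none of the 7 pairs passed within Montbéliarde, where rho lay between 0.486 and 0.943 with an exact permutation adjusted p of at least 0.102, and CNLX15 and CNLX21 are 2 of those 6 libraries.

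Of the let-7 miRNAs encoded beside the members, bta-let-7c, which lies between MIR125B-2 and MIR99A, had normalized counts of 16991 ± 2143 (SD, n = 5) for Holstein against 24235 ± 8167 (SD, n = 6) for Montbéliarde cows, with a log2 fold change of 0.51 (SE 0.22, adjusted p = 0.325 in edgeR). bta-let-7e, between MIR99B and MIR125A, had 2627 ± 542 and 2940 ± 510, with a log2 fold change of 0.15 (SE 0.17, adjusted p = 0.727). bta-let-7a-5p, which also comes from genes outside these clusters, had 212060 ± 32803 and 213648 ± 41646, with a log2 fold change of 0.01 (SE 0.18, adjusted p = 0.988). None of the 3 passed, and their breed differences were not tested against each other. The log2 fold changes without CNLX15 and CNLX21 were 0.27 (SE 0.16) for bta-let-7c, 0.23 (SE 0.15) for bta-let-7e and 0.08 (SE 0.17) for bta-let-7a-5p.

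Over the 11 libraries, 7 relations of a member with the let-7 of its cluster or with its opposite arm were computed after the data were seen, and 1 passed. bta-miR-125b and bta-let-7c had an r of 0.815 (permutation adjusted p = 0.0168, rho = 0.691, permutation adjusted p = 0.153), which was 0.504 without CNLX15 and CNLX21 (permutation adjusted p = 0.559). bta-miR-99a-5p and bta-let-7c had an r of 0.675 (permutation adjusted p = 0.0813, rho = 0.382), which turned to -0.212 without those libraries (permutation adjusted p = 0.609). For bta-let-7e r was 0.036 with bta-miR-99b (permutation adjusted p = 0.927, rho = -0.018) and 0.031 with bta-miR-125a (permutation adjusted p = 0.927, rho = 0.10). Without CNLX9 and CNLX21, the libraries farthest from the median of bta-miR-125a, the latter became 0.740 (permutation adjusted p = 0.174), and without CNLX15 and CNLX21 the former became -0.283 (permutation adjusted p = 0.609). bta-let-7a-5p had an r of -0.155 with bta-miR-100 (permutation adjusted p = 0.907, rho = -0.127) and of 0.163 with bta-miR-125b (permutation adjusted p = 0.907, rho = 0.155).

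The opposite arm of a miRNA hairpin was named in the table for 1 member. bta-miR-99a-3p had a normalized count of 98.2 ± 6.83 (SD, n = 5) for Holstein against 128 ± 22.7 (SD, n = 6) for Montbéliarde cows, with 5 of 6 Montbéliarde libraries above the highest Holstein library. Its log2 fold change of 0.38 (SE 0.18) did not pass (adjusted p = 0.348 in edgeR), and it was 0.377 (SE 0.18) without CNLX15 and CNLX21. Between 65.3 and 208 reads of bta-miR-99a-5p were counted for each read of bta-miR-99a-3p, with a mean of 122 ± 21.9 (SD, n = 5) for Holstein against 130 ± 48.2 (SD, n = 6) for Montbéliarde libraries. The highest ratio was in CNLX15 and the lowest in CNLX23. Over the libraries the arms had an r of 0.523 (permutation adjusted p = 0.205, rho = 0.327), and as few as 69 reads stood behind a value of the 3p arm. bta-miR-10a and bta-miR-10b, relatives of the miR-99/100 family, had log2 fold changes of 0.03 (SE 0.24, adjusted p = 0.975 in edgeR) and -0.09 (SE 0.25, adjusted p = 0.890). Without CNLX15 and CNLX21 these were -0.22 (SE 0.18) and -0.21 (SE 0.26).

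Among 209 non-member miRNAs with at least 10 CPM on average (counts scaled to a common library size with edgeR's TMM factors), the 3 whose log2 levels were most like each member over the 11 libraries were listed by Pearson's r, as a description. For bta-miR-99a-5p they were bta-miR-199a-5p (r = 0.974), bta-miR-214 (r = 0.957) and bta-miR-342 (r = 0.936). For bta-miR-99b they were bta-miR-1271 (r = 0.959), bta-miR-218 (r = 0.924) and bta-miR-24-3p (r = 0.902), and for bta-miR-100 they were bta-miR-1271 (r = 0.982), bta-miR-143 (r = 0.942) and bta-miR-218 (r = 0.923). The list was thus shared in part by bta-miR-99b and bta-miR-100. For bta-miR-125a they were bta-miR-31 (r = 0.881), bta-miR-222 (r = 0.862) and bta-let-7c (r = 0.857). For bta-miR-125b they were bta-miR-199a-3p (r = 0.952), bta-miR-3604 (r = 0.951), whose counts nearly equal those of bta-miR-199a-3p, and bta-miR-199a-5p (r = 0.938). bta-miR-143, bta-miR-199a-3p, bta-miR-199a-5p and bta-miR-214 are 4 of the 5 miRNAs used below as stromal markers.

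Over the 11 libraries the summed stromal markers varied in the same direction as the members and the summed epithelial markers in the opposite one. The part of these markers in the breed difference was not tested apart from the fits below. The 5 epithelial markers (miR-200a, miR-200b, miR-200c, miR-141 and miR-429) summed to between 36011 and 44636 CPM in Holstein and between 15694 and 45919 in Montbéliarde libraries. Among the Montbéliarde libraries, 5 were below the lowest Holstein library, and CNLX13 was above the highest. None of the 5 markers passed edgeR's threshold, and 0 had a positive log2 fold change. By mean level miR-141 gave most of the epithelial sum in both breeds. Its log2 fold change was -0.74, against -0.61 for miR-200c, -0.33 for miR-429, -0.10 for miR-200b and -0.04 for miR-200a. The 5 stromal and smooth muscle markers (the 4 named above and miR-145) summed to 153730 to 226268 in Holstein libraries and to 195521 to 378064 in Montbéliarde ones, with 0 called and 4 of 5 higher in Montbéliarde. The exception was miR-145, with a log2 fold change of -0.27 (SE 0.25), against 0.58 (SE 0.18) for miR-143. CNLX15 had an epithelial sum of 15694 and a stromal sum of 378064, and CNLX21 had 16431 and 340859. miR-143 alone gave most of the stromal sum.

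Of the remaining marker lists, 0 markers were called. The 5 leukocyte markers summed to between 1827 and 2905 CPM in Holstein and between 1748 and 3854 in Montbéliarde libraries, and 5 of 5 were higher in Montbéliarde. The 2 endothelial markers summed to between 25476 and 34172 and between 24321 and 30312. The 3 erythroid markers gave 2544 to 4094 and 2525 to 5469, and bta-miR-205, the only basal epithelial marker matched, gave 1424 to 2086 and 1895 to 3513. The 2 skeletal muscle markers matched gave 59.0 to 176 and 47.5 to 149. No matched marker was at 0 in all libraries, and all lists were of miRNAs, which are less exclusive to a cell type than protein markers.

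Against the marker sums, 10 relations of a member with the epithelial or the stromal sum were computed after the data were seen. The stromal sum was mostly miR-143, so these relations are largely with miR-143, whose own r with bta-miR-100 was 0.942. With the stromal sum r was 0.943 for bta-miR-100 (permutation adjusted p = 1e-04, rho = 0.964, permutation adjusted p = 0.000300), and it was 0.857 without CNLX15 and CNLX21 (permutation adjusted p = 0.0258) and 0.916 within Montbéliarde (exact permutation adjusted p = 0.0417). For the other members r with the stromal sum lay between 0.686 and 0.885, and with the epithelial sum r of the 5 members lay between -0.839 and -0.640. All 10 passed over the 11 libraries on Pearson's r, with a permutation adjusted p of at most 0.0291, and 7 of 10 on Spearman's rho, where the epithelial relations of bta-miR-99a-5p, bta-miR-125a and bta-miR-125b did not. Without CNLX15 and CNLX21 only bta-miR-100 with the stromal sum passed, and within Montbéliarde alone it was again the only pair to pass.

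**Figure D3:**
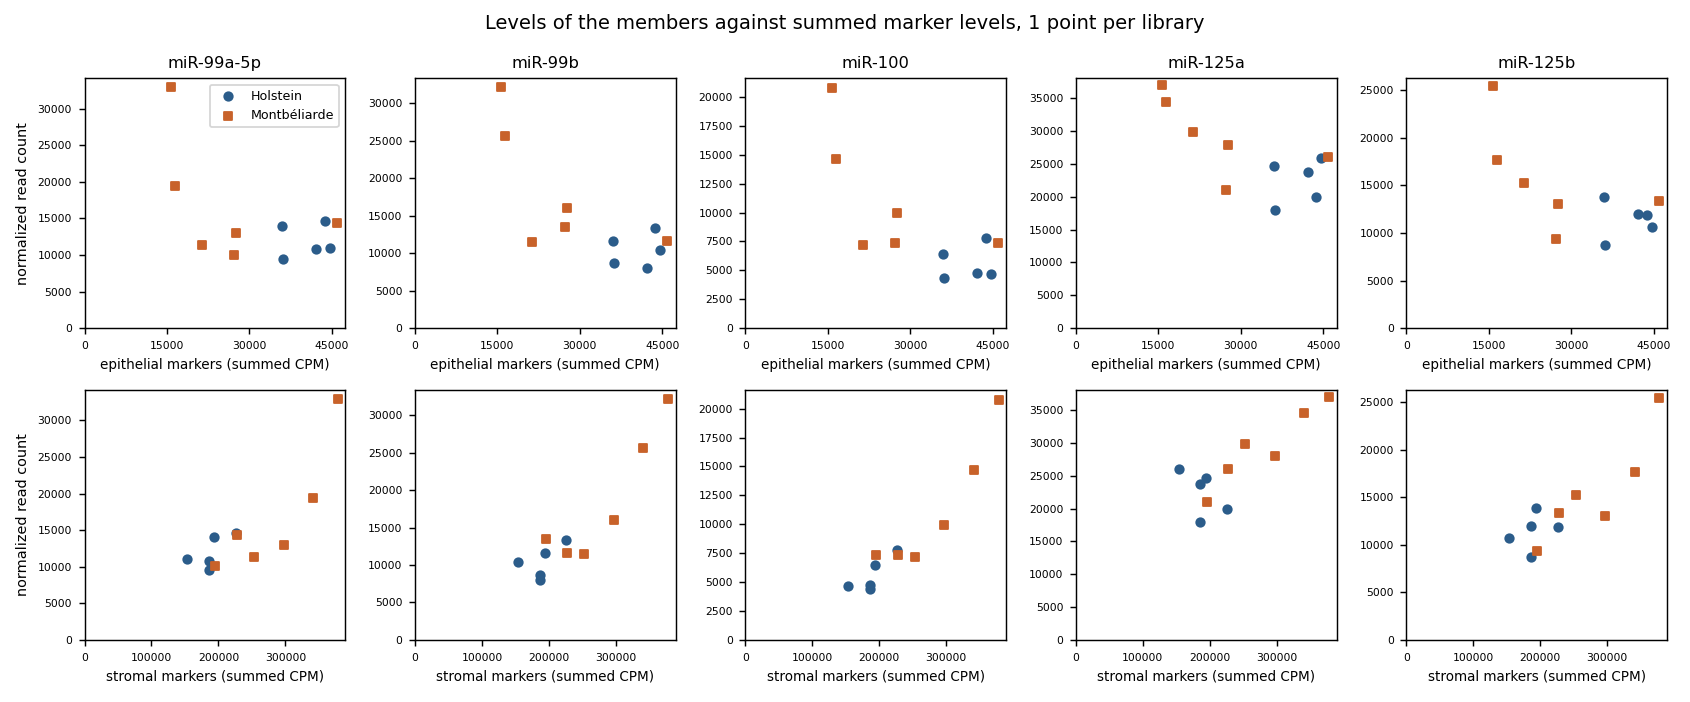
Normalized read count (vertical axes) of each of the 5 miRNAs against the summed epithelial markers (upper row) and stromal markers (lower row) in CPM, with 1 point for each library, circles for Holstein and squares for Montbéliarde. CNLX15 and CNLX21 are the squares with the lowest epithelial and the highest stromal sums.

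The breed difference was also fitted with the epithelial sum, mostly miR-141, as a covariate, and no member passed. The log2 fold change of Montbéliarde over Holstein then became 0.30 (SE 0.28) for bta-miR-100, 0.11 for bta-miR-99b, 0.11 for bta-miR-125a, 0.01 for bta-miR-125b and -0.04 for bta-miR-99a-5p. With the stromal sum, mostly miR-143, as a covariate, added after the data were seen, it was 0.08 (SE 0.21) for bta-miR-100, 0.02 for bta-miR-99b, 0.11 for bta-miR-125a, -0.16 for bta-miR-125b and -0.34 for bta-miR-99a-5p. The standard errors in both fits lay between 0.21 and 0.29, so the values near 0 do not show that the breeds are alike. The marker sums differ between the breeds themselves, and breed and tissue make-up cannot be fully told apart in 11 libraries.

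**Figure D4:**
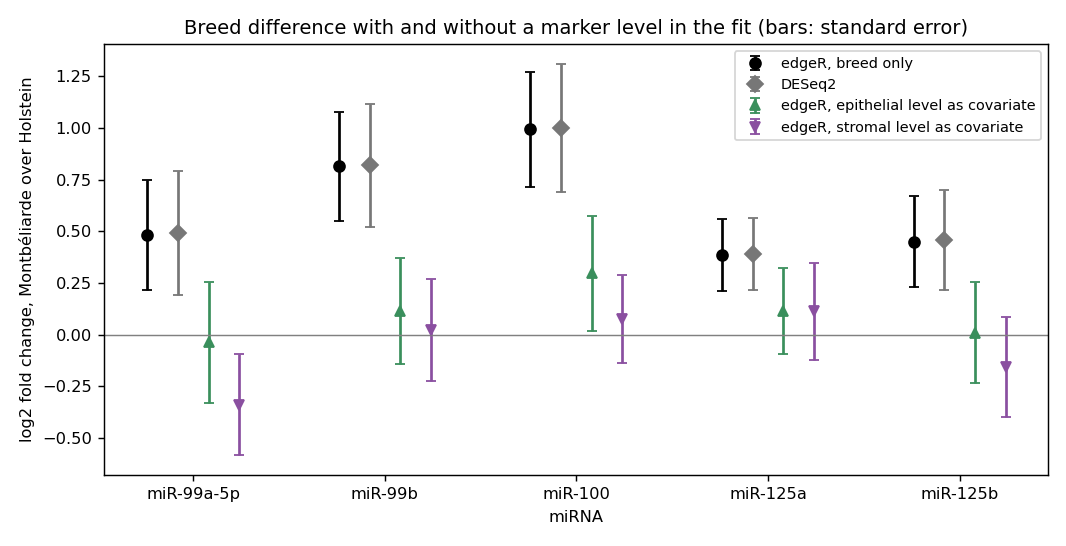
Log2 fold change of Montbéliarde over Holstein (vertical axis, bars show the standard error) for the 5 miRNAs from edgeR, from DESeq2 and from edgeR with the epithelial or the stromal marker sum as a covariate. All 5 values are above 0 with breed alone, and with a marker sum in the fit they lie between -0.34 and 0.30.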

How the data were processed

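The authors made small RNA libraries from 11 mammary biopsies, demultiplexed reads with bcl2fastq 2.17.1.14, trimmed adapters, kept reads of 15 to 40 nucleotides, and used ncPRO-seq and miRDeep2 to count known and predicted miRNAs on assembly btau5.0.1 with miRBase names. The deposited table holds a raw count for each miRNA and library, and the authors' normalized signal, which equals the count divided by a DESeq2 1.18.1 size factor (0.600 to 1.66). It also holds the authors' own breed means, fold changes and p-values, which were not used.

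Counts were tested here with edgeR 4.0.16 in R 4.3.3 (TMM, quasi-likelihood F-test, breed as the only term) on 550 miRNAs, those with a sum of 10 or more counts,, with Benjamini-Hochberg adjustment over all of them and a threshold of 0.05. DESeq2 1.42.0, limma 3.58.1 (voom) and other filters, scalings, covariates and libraries left out served as alternatives. DESeq2 was first run with its independent filtering set at 0.05 and then with the tool's default, which is the value reported, and that change was made after the first results had been seen. Ratios were compared with exact permutation tests over the libraries, and correlations used log2 TMM CPM with a pseudocount of 1 and 100000 permutations (exact for 6 libraries, scipy 1.17.1). The fits were tested on simulated data. Levels in the text are the authors' normalized counts, and fold changes come from the raw counts. Depth ranged from 6087865 to 16808976 counted reads, so counting error is small beside the spread between cows.

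The named miRNAs were the 5 members, the let-7 miRNAs of their clusters, other arms, bta-miR-10a and bta-miR-10b, and for each member the 3 most alike miRNAs. miRNAs that share a member's seed were not listed, since that needs sequences not used here. The members, the lists and the tests were chosen with earlier results of these data known.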

Additional observations from a re-analysis of the deposited data

Results flagged for a closer look

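Among 44 sets of values (members, ratios, family shares and marker sums in each breed), 2 held a library far from the others of its breed, where chance alone flags about 1 in 20. The count ratio of bta-miR-125b to bta-miR-125a was 0.686 in CNLX15, and the next highest Montbéliarde library had 0.512. The summed skeletal muscle markers reached 176 CPM in the Holstein library CNLX3, and the next highest Holstein library had 88.8.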

How the results depend on the processing

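All but 5 of the alternative log2 fold changes of the members kept the direction and the side of the threshold. bta-miR-100 passed with DESeq2 (log2 fold change 1.001), with default filtering (adjusted p = 0.0363) and with filtering set at 0.05 (adjusted p = 0.0424). bta-miR-99a-5p turned to -0.0364 with the epithelial covariate and to -0.34 with the stromal one, and bta-miR-125b to -0.16 with the stromal one. When each library was left out, the log2 fold changes were 0.27 to 0.61 (bta-miR-99a-5p), 0.67 to 0.96 (bta-miR-99b), 0.82 to 1.182 (bta-miR-100), 0.31 to 0.50 (bta-miR-125a) and 0.35 to 0.57 (bta-miR-125b), and none passed. The log2 ratio differences were then 0.48 to 0.60 (bta-miR-100 to bta-miR-99a-5p), -0.43 to -0.28 (bta-miR-99a-5p to bta-miR-99b), -0.0554 to 0.0847 (bta-miR-125b to bta-miR-125a), -0.0839 to 0.0753 (bta-miR-99a-5p to bta-miR-125b) and 0.43 to 0.62 (bta-miR-100 to bta-miR-125b). With medians, the bta-miR-100 to bta-miR-99a-5p difference was 0.57 and no longer passed, and that of bta-miR-99a-5p to bta-miR-125b was 0.0611. With CNLX15 and CNLX21 left out together the first of these was 0.50 and no longer passed, and that of bta-miR-125b to bta-miR-125a was -0.0725. Leaving libraries out also raises the smallest exact p possible, so a lost call does not by itself show a lost difference. With a Montbéliarde library left out, or with CNLX15 and CNLX21 left out, a single ratio could not pass after the adjustment. Without the reads of bta-miR-143 the share difference was 0.210 percentage points for the miR-125 family, 0.303 for the miR-99/100 family and 0.514 for both families, where the smaller total raises every share. Without the libraries farthest from the median, correlations of 0.524, 0.389, 0.715, 0.454 and 0.213 no longer passed (order of pairs: bta-miR-100 with bta-miR-99a-5p, bta-miR-99a-5p with bta-miR-99b, bta-miR-99a-5p with bta-miR-125b, bta-miR-100 with bta-miR-125b, bta-miR-99b with bta-miR-125a), nor did 0.719 for bta-miR-99b with bta-miR-125a in Montbéliarde alone. The stromal covariate, the filtering at 0.05, the joint omission of CNLX15 and CNLX21 and the omission of bta-miR-143 were chosen after seeing the data. Apart from the smaller total and the fewer libraries, the cause of these changes was not tested. The number of cows, more than read depth, limits the precision. No paired analysis was possible because the breeds share no replicate number.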
